A study of Mus musculus with 8 samples.

Results

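The conjugating enzymes of phase II drug metabolism were followed in the mouse liver transcriptome, in RORα f/f and liver-specific RORα knockout (RORα LKO) mice on a control diet (CD) or a high-fat diet (HFD). The set comprised each row of the FPKM table whose Ensembl gene is protein coding and whose symbol names a UDP-glucuronosyltransferase (Ugt1a, Ugt2a, Ugt2b or Ugt3a), a cytosolic or kappa-class glutathione S-transferase (Gsta, Gstk, Gstm, Gsto, Gstp, Gstt or Gstz) or a sulfotransferase (Sult). It held 63 of the 38283 rows, of which 20 were UGT, 22 GST and 21 SULT genes. FPKM counts fragments relative to transcript length and to library size, so that levels of different genes in a library are on a scale per length. There were 4 groups with 2 RNA-seq libraries each: RORα f/f on CD, RORα LKO on CD, RORα f/f on HFD and RORα LKO on HFD. Each library came from the pooled livers of 2 mice and each group held 4 mice. All of them were male, on a C57BL/6 background, placed on the diets at 8 weeks of age for 10 weeks. Every mouse carried floxed Rora alleles. The LKO mice also carried Cre recombinase driven by the albumin promoter, which acts in hepatocytes, so that the other cells of the liver keep Rora and the controls are floxed mice without Cre.

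UGTs, GSTs and SULTs attach glucuronic acid or another sugar, glutathione, or a sulfate group to lipophilic molecules and so make them water soluble and ready for export in bile or urine. The liver is the main site of these reactions, and bilirubin, bile acids, steroid and thyroid hormones, drugs and products of lipid peroxidation are among the substrates. Many of the genes lie in clusters of close copies. The Ugt1a genes are a special case, since each has its own leading exon that is spliced to a set of exons that the whole locus shares.

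The libraries were checked before the members were compared. Rora itself had 8.85 and 8.59 FPKM in the CD-fed f/f libraries and 7.96 and 8.18 in the CD-fed LKO libraries. On HFD it had 7.56 and 7.86 FPKM in f/f and 7.31 and 8.02 in LKO, so that these groups overlapped. Rora did not pass by genotype (adjusted p = 0.613 on CD and 0.974 on HFD in limma). The paper reports strongly reduced hepatic Rora mRNA and protein in LKO mice, which these values do not show. The value covers the whole gene, and a loss of the deleted exons alone was not tested. The genotype of each library therefore rests on its label. The labels read RORa KO and RORa WT, given here as LKO and f/f after the names in the paper. Albumin was listed at 0 in 4 of the 8 libraries and at 29902 to 30888 FPKM in the others. A 0 here thus need not mean absence. The 4 were library 1 of CD-fed LKO, library 2 of HFD-fed f/f, and libraries 1 and 2 of HFD-fed LKO. They were therefore unevenly split by diet. Albumin enters the total FPKM of a library and the top ranks of quantile normalisation. None of the 45 members that were tested was listed at 0 in any library. The 6 other hepatocyte markers summed to 12906 to 14328 FPKM on CD and to 11531 to 12230 on HFD. The pancreatic markers Cpa1, Prss2, Amy2b, Cela3b and Ctrb1 were listed at 0 in all 8 libraries, and Cela1, the other gene of that list, ranged from 4.62 to 14.0 FPKM. The stellate cell list, 6 genes led by Dcn, summed to 36.9 to 58.5 FPKM on CD and to 67.5 to 92.4 on HFD. In the summed list of macrophage markers the range was 45.1 to 79.9 FPKM, with no call by diet. In whole liver, fewer cells of a type and less RNA per cell cannot be told apart. Library 2 of the CD-fed f/f group stood apart from the rest: its FPKM summed to 983738, against 732622 to 806782 in the other 7.

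Phase II transcripts were abundant in every library. The 63 members together had 6939 to 7431 FPKM on CD and 5858 to 6225 FPKM on HFD. Of the 63 genes, 14 had a mean above 100 FPKM, 40 exceeded 1 FPKM in all 8 libraries and 45 did so in at least 1 library. Those 45 (17 UGT, 20 GST and 8 SULT genes) passed the filter for testing.

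A few genes in each family carried most of this signal. Among the GSTs, Gstp1, the pi-class enzyme, and Gsta3, the alpha-class enzyme known for conjugating aflatoxin epoxide in mice, had means of 1031 and 991 FPKM. Gstm1, the main mu-class enzyme of liver, followed with 694 FPKM, then Gstz1, the maleylacetoacetate isomerase of tyrosine breakdown, with 399 FPKM and the theta-class Gstt1 with 218 FPKM. Gsta3 and Gstp1 each took about the same share of the summed GST signal on average (26.4% and 26.3%). The share of Gstp1 was the less steady, from 15.2% to 36.3% of the family sum over the 8 libraries.

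Among the UGTs the highest means were those of Ugt2b5 (409 FPKM), Ugt2b36 (377 FPKM), Ugt2b1 (219 FPKM), Ugt3a2 (208 FPKM) and Ugt2b34 (174 FPKM). Enzymes of the Ugt2b group act on steroids and bile acids, whereas Ugt3a enzymes use sugars other than glucuronic acid. Ugt1a1, which conjugates bilirubin, ranged from 124 to 183 FPKM. SULT transcripts were dominated by Sult2a8, a bile acid sulfotransferase, with a mean of 460 FPKM, and by the phenol sulfotransferase Sult1a1 with 214 FPKM. Sult1d1, which acts on catecholamines, had 79.5 FPKM, Sult1b1, which acts on thyroid hormone, 23.1 FPKM, and Sult5a1 9.35 FPKM.

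**Figure D1:**
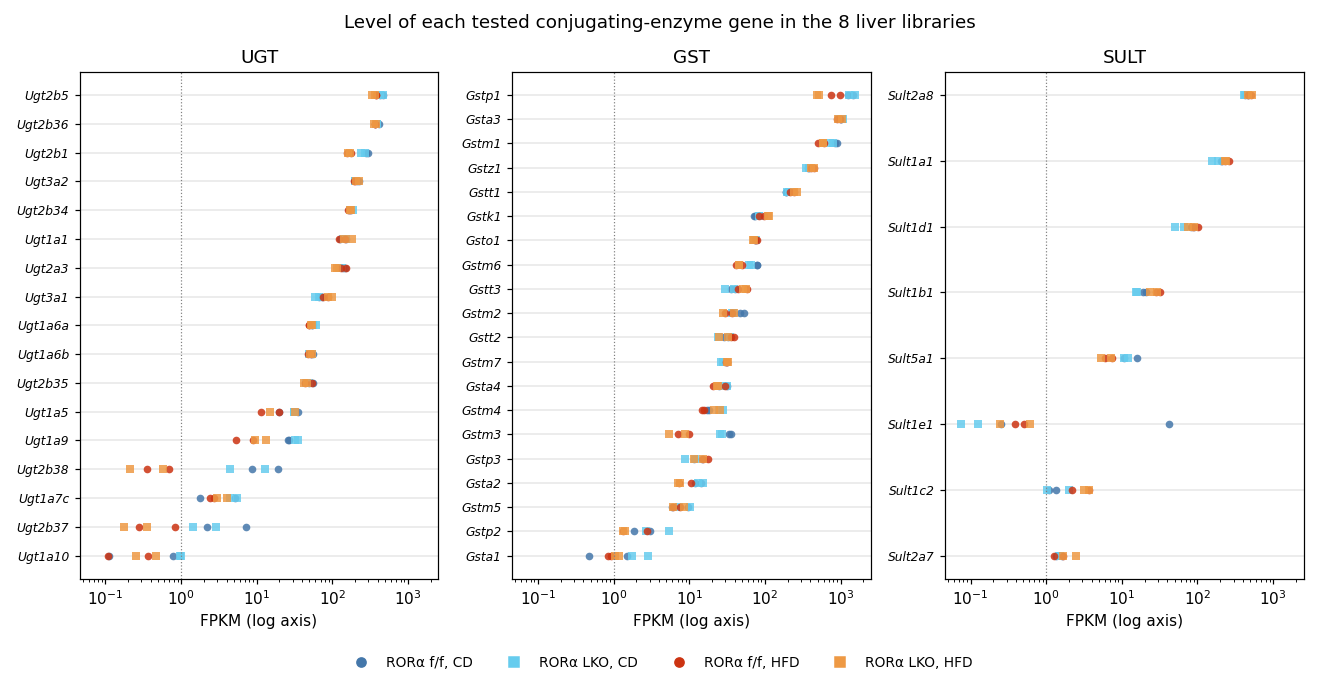
FPKM (log axis) of the 45 tested members, 1 row a gene and 1 point a library, by family; colour and shape give the group and the dotted line marks 1 FPKM. Most genes have all 8 points within a narrow band, whereas Ugt2b38, Ugt2b37, Ugt1a9 and Gstm3 have their HFD points to the left and Sult1e1 has 1 CD-fed f/f library at 41.7 FPKM, far to the right of the others.

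The remaining 18 members were not tested. Of these, 6 (Sult1c1, Sult2a3, Sult2a4, Sult2a5, Sult2a6 and Sult6b2) were listed at 0 in all libraries and 12 had values above 0 that never exceeded 1 FPKM. Just outside the limit were Ugt2a2, with at most 0.636 FPKM, and Ugt1a2, with at most 0.324 FPKM. Just inside it were Ugt1a10, whose highest value was 1.01 FPKM, and Sult2a7, whose highest value was 2.49 FPKM. Most of the female-typical Sult2a and Sult3a genes fell into the untested class in these male livers. The olfactory gene Ugt2a1 was not analysed here.

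Diet moved a large part of the set. The question of this comparison was how 10 weeks of HFD altered the conjugating enzymes when both genotypes were considered together. Of the 45 tested members, 19 passed an adjusted p of 0.05 in limma on quantile-normalised log2(FPKM + 1) values. Of these, 9 were higher on HFD (9 of 45 members, against 5.04% of all 11634 genes tested) and 10 were lower (10 of 45, or 22.2%, against 4.86%). Of the 10, Ugt2b38 and Ugt2b37 exceeded 1 FPKM in CD libraries only, so that they entered the test through the diet on which they were high. With genes above 1 FPKM in all 8 libraries, 17 of 40 members were called, against 13.25% of the 9839 genes then tested. Of the 17, 9 were higher and 8 lower, and all were among the 19. For each of the 19, the 4 CD and the 4 HFD libraries did not overlap after normalisation. Counting every member whose libraries were apart in this way gave 9 higher and 11 lower, where 8.61% and 8.11% of all genes were apart in those directions. The median log2 fold change was -0.06 over the 45 members and 0.01 over all genes. By family, the median was -0.07 for UGTs, -0.17 for GSTs and 0.33 for SULTs.

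The families moved in different proportions. Of the 17 UGTs, 1 rose and 4 fell. Of the 20 GSTs, 4 rose and 5 fell. Of the 8 SULTs, 4 rose and 1 fell. In summed FPKM, the GSTs had 4151 to 4453 on CD and 3166 to 3502 on HFD, and the UGTs 2022 to 2184 on CD and 1770 to 1910 on HFD. The SULTs had 658 to 796 FPKM on CD and 833 to 865 FPKM on HFD. The diets did not overlap in any of these sums. A share of all FPKM has a total that includes albumin, which was listed at 0 in more HFD than CD libraries. As a share of all FPKM in a library they did overlap for GSTs (0.422% to 0.571% on CD, 0.422% to 0.464% on HFD) and for UGTs (0.207% to 0.274% on CD, 0.235% to 0.255% on HFD), and not for SULTs (0.0809% to 0.0983% on CD, 0.114% to 0.115% on HFD).

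Gstm3, a mu-class GST, showed the steepest drop among the GSTs. It had 33.9 and 36.1 FPKM in CD-fed f/f, 25.8 and 27.0 in CD-fed LKO, 7.06 and 9.79 in HFD-fed f/f, and 8.69 and 5.43 in HFD-fed LKO. Each HFD library was far below each CD library. The log2 fold change was -1.85 ± 0.15 (SE, n = 4 libraries per diet, adjusted p = 0.00332), and it was of similar size within each genotype, -1.92 ± 0.22 in f/f (adjusted p = 0.0265) and -1.78 ± 0.22 in LKO (adjusted p = 0.0194).

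The neighbours of Gstm3 on chromosome 3 behaved unequally. Gstm6 went from 61.7 to 79.7 FPKM on CD to 41.8 to 50.1 on HFD (log2 fold change -0.57 ± 0.07, adjusted p = 0.00809). Gstm1 went from 732 to 911 FPKM to 507 to 599 (-0.37 ± 0.07, adjusted p = 0.0261). These fell with Gstm3, whereas Gstm7 and Gstm5, which lie at one end of the cluster, had values of 0.15 (adjusted p = 0.110) and -0.16 (adjusted p = 0.610). Gstm2, between Gstm3 and Gstm1, had 37.0 to 52.4 FPKM on CD and 27.8 to 39.5 on HFD, a log2 difference of -0.34 that missed the threshold (adjusted p = 0.151). Reads can be shared among these copies. Of the distinct 50-base windows in the transcripts of Gstm3, 28.8% occur in the transcripts of another gene, 9.83% in those of Gstm1.

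Gstp1 was the most abundant member that fell. It had 1456 and 1251 FPKM in CD-fed f/f and 1277 and 1535 in CD-fed LKO. It had 990 and 744 FPKM in HFD-fed f/f and 512 and 482 in HFD-fed LKO. The diets were apart in both genotypes, and on HFD the LKO libraries lay below the f/f libraries. Of all genes, 24.1% in f/f and 25% in LKO were apart and lower on HFD. For 20.8% of all genes the HFD-fed LKO libraries were apart from and below those of f/f. The diet difference was -0.92 ± 0.12 averaged over genotypes (adjusted p = 0.00926). In LKO alone it was -1.30 ± 0.17 (adjusted p = 0.0194) and in f/f alone -0.53 ± 0.17 (adjusted p = 0.167). Transcripts of Gstp1 share 33.7% of their 50-base windows with Gstp2. With Gstp1, Gstp2 and Gstp3 summed, the averaged diet difference was -0.91 (adjusted p = 0.00844). Gsta2, an alpha-class enzyme, went from 12.1 to 15.4 FPKM on CD to 7.07 to 10.6 on HFD (-0.67 ± 0.12, adjusted p = 0.0221). It shares 36.0% of its windows with Gsta1, and the sum of both had -0.67 (adjusted p = 0.0198).

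The GSTs that rose on HFD belong to other classes. Gstk1, the kappa-class enzyme of mitochondria and peroxisomes, had 72.6 to 83.8 FPKM on CD and 82.8 to 112 on HFD in FPKM as deposited. After normalisation its diets were apart, with a log2 fold change of 0.42 ± 0.06 (adjusted p = 0.0106). The theta-class genes Gstt1 (0.39 ± 0.06, adjusted p = 0.0146) and Gstt3 (0.57 ± 0.13, adjusted p = 0.0383), which lie side by side on chromosome 10, rose as well. Their neighbour Gstt2 had 0.16 (adjusted p = 0.489). Gstz1 had 350 to 388 FPKM on CD and 404 to 449 on HFD (0.33 ± 0.06, adjusted p = 0.0206), a call that was lost with FPKM used without normalisation (0.19, adjusted p = 0.0971). Gsta3 had 946 to 1081 FPKM on CD and 899 to 1047 on HFD. Its log2 fold change was 0.16 in the fit (adjusted p = 0.275) and -0.07 without normalisation, so that its sign depended on the scaling.

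**Figure D2:**
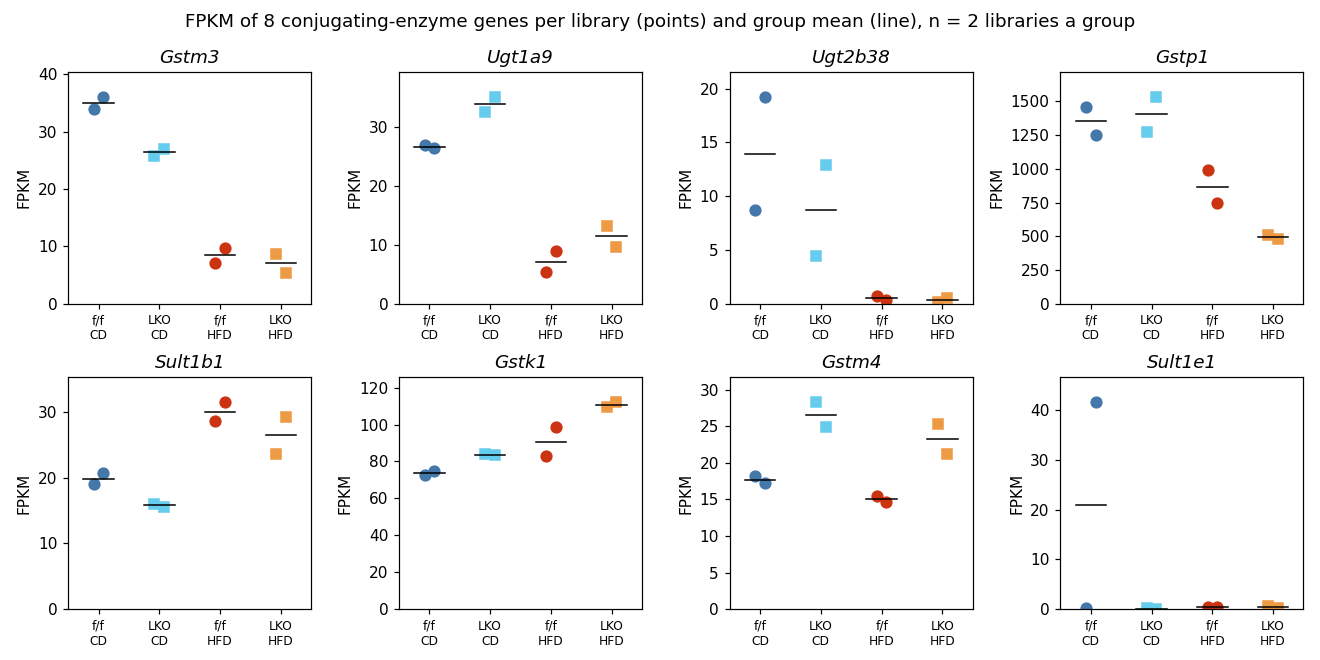
FPKM in each library (points, 2 a group) and the group mean (line) of 8 members. Gstm3, Ugt1a9, Ugt2b38 and Gstp1 are low on HFD, Sult1b1 and Gstk1 are high on HFD, Gstm4 is higher in LKO than in f/f on each diet, and Sult1e1 is above 1 FPKM in 1 library.

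UGT genes that fell on HFD were Ugt2b1, Ugt1a9, Ugt2b38 and Ugt2b37. Ugt2b1 had 296 and 281 FPKM in CD-fed f/f, 238 and 273 in CD-fed LKO, 159 and 174 in HFD-fed f/f, and 159 and 172 in HFD-fed LKO. No HFD library reached a CD library. Its log2 fold change was -0.60 ± 0.06 (adjusted p = 0.00433), with -0.70 in f/f (adjusted p = 0.0266) and -0.50 in LKO (adjusted p = 0.0325). No 50-base window of Ugt2b1 is found in another gene, so its value rests on reads of its own.

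Ugt1a9, whose enzyme conjugates phenols and fatty acid derivatives, had 26.9 and 26.4 FPKM in CD-fed f/f and 32.6 and 35.2 in CD-fed LKO. On HFD it had 5.39 and 8.94 FPKM in f/f and 13.2 and 9.66 in LKO. The highest HFD library was below the lowest CD library. The log2 fold change was -1.62 ± 0.16 averaged over genotypes (adjusted p = 0.00453), -1.76 ± 0.22 in f/f (adjusted p = 0.0349) and -1.47 ± 0.22 in LKO (adjusted p = 0.0297). Other genes of the locus did not pass the test. Ugt1a1 had 0.14 (adjusted p = 0.425), Ugt1a6a -0.07 (adjusted p = 0.382) and Ugt1a6b 0.02 (adjusted p = 0.879, with the opposite sign without normalisation). Because 62.0% of the windows of Ugt1a9 occur in other genes of the locus, its level depends on how shared fragments were divided. The sum of all Ugt1a genes was 298 to 332 FPKM on CD and 241 to 321 FPKM on HFD, a log2 difference of -0.01 (adjusted p = 0.902).

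Ugt2b38 and Ugt2b37, a pair of close copies on chromosome 5, were at low levels on HFD. Ugt2b38 had 8.69 and 19.3 FPKM in CD-fed f/f and 4.42 and 12.9 in CD-fed LKO. On HFD it had 0.697 and 0.352 FPKM in f/f and 0.210 and 0.583 in LKO. Replicates on CD differed widely, yet the lowest CD library was above every HFD library. The log2 fold change was -2.92 ± 0.36 averaged over genotypes (adjusted p = 0.00792), -3.20 ± 0.50 in f/f (adjusted p = 0.0437) and -2.65 ± 0.50 in LKO (adjusted p = 0.0467). Ugt2b37 had 1.44 to 7.13 FPKM on CD and 0.179 to 0.840 on HFD (-1.51 ± 0.31, adjusted p = 0.0322). Its highest value came from library 2 of CD-fed f/f, and without that library the averaged difference was -1.17 (adjusted p = 0.0679). For Ugt2b38 it was -2.64 without that library (adjusted p = 0.0349). No HFD library exceeded 1 FPKM for either gene, so their fitted values describe genes that the filter admitted through CD. With Ugt2b35 to Ugt2b38 summed, a sum held mostly by Ugt2b36 and without Ugt2b5, the averaged difference was -0.02 (adjusted p = 0.84). Of the windows of Ugt2b38, 0.326% occur in Ugt2b36 and 34.1% in Ugt2b5. This sum therefore cannot show how the shared reads of Ugt2b38 were divided. Ugt2b5, with 424 to 476 FPKM on CD and 338 to 384 on HFD, changed by -0.18 ± 0.06 and did not pass (adjusted p = 0.0901). Without normalisation it was -0.28 and passed (adjusted p = 0.0397). It shares 34.8% of its windows with Ugt2b38 and 15.5% with Ugt2b37.

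The sequences before the starts of these 3 copies show how alike the genes are in the region next to transcription. They are given here because the 3 genes share reads and differ in the size of their diet values. The bases are from RefSeq (GRCm38.p6), 5′ to 3′ on the minus strand, up to 250 bases before the RefSeq start and without bases inside the GENCODE gene. Capitals mark AGGTCA, a core half-site that ROR proteins and other nuclear receptors can bind. The windows lie at chr5:87140341-87140590 (Ugt2b5), chr5:87254805-87255038 (Ugt2b37) and chr5:87424204-87424453 (Ugt2b38).
Ugt2b5: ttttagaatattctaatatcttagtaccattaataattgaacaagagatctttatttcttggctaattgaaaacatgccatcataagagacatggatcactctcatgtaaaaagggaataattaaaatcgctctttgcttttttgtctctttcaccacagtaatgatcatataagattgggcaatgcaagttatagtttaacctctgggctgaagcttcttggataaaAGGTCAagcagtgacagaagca
Ugt2b37: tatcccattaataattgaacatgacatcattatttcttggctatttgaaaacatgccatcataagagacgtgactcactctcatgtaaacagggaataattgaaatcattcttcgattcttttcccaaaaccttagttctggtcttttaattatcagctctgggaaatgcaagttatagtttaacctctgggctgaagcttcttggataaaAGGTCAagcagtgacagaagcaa
Ugt2b38: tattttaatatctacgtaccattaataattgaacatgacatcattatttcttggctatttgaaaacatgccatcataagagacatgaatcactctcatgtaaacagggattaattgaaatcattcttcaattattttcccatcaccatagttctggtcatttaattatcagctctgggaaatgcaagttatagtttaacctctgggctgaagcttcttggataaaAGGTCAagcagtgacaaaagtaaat

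Compared without gaps at the best shift, the 250-base windows of Ugt2b37 and Ugt2b38 were identical at 94.1% of 236 positions. That of Ugt2b5 was identical at 59.9% of 242 positions to Ugt2b38. All 3 shared an unbroken run of 62 bases that holds AGGTCA and begins 68, 85 and 71 bases before the start of Ugt2b5, Ugt2b37 and Ugt2b38. AGGTCA also stands in the windows of Ugt2b35 and Ugt2b36. A match is a description and not a binding site.

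Promoter windows of the 250 bases before the start were found in RefSeq for 40 of the 45 tested members, the others being Gsta4, Gstt2, Sult2a7, Ugt1a6b and Ugt3a2. AGGTCA was present on either strand in 10 of the 40, against 14.0% of 32851 windows of the same length over all genes. Of these 10, 5 are the Ugt2b genes named above, among which Ugt2b5, Ugt2b37 and Ugt2b38 share the run. GGGTCA was present in 4 of 40 (against 11.6%). TGACNNNGC, a core of the antioxidant response element, was present in 2 of 40 (5.00%, against 10.2%), and TTCNNNGAA, a core of STAT5 sites, in 2 of 40 (5.00%, against 7.02%). Motifs of different kinds could overlap each other. Ugt1a9 and Gstm4, the members that are taken up below for their genotype values, hold 1 match each. That of Ugt1a9 (chr1:88070529-88070778, plus strand) is AGGTCA, 201 bases before the start. That of Gstm4 (chr3:108044895-108045109, minus strand) is TGACCC, which is GGGTCA on the other strand, 162 bases before the start.
Ugt1a9: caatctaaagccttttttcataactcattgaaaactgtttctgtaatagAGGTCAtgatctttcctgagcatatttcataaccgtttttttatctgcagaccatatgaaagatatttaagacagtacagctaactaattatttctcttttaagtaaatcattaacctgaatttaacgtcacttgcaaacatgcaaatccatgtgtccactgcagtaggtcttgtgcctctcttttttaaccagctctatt
Gstm4: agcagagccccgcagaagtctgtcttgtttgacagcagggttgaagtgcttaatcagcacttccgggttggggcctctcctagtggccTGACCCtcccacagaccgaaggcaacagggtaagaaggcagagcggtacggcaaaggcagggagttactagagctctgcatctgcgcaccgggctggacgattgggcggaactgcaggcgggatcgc

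Ugt3a1, whose enzyme transfers N-acetylglucosamine, was the UGT gene that rose. It had 58.9 to 73.3 FPKM on CD and 76.0 to 99.5 on HFD. The difference was 0.47 ± 0.07 (adjusted p = 0.0134), with 0.65 ± 0.10 in LKO (adjusted p = 0.0301) and 0.29 ± 0.10 in f/f (adjusted p = 0.198). The adjacent Ugt3a2 had 196 to 228 FPKM over all libraries and a log2 fold change of 0.07 (adjusted p = 0.413), with a negative sign when FPKM were not normalised.

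The SULTs were the family with more rises than falls. Sult1b1 had 19.1 and 20.7 FPKM in CD-fed f/f, 16.1 and 15.5 in CD-fed LKO, 28.6 and 31.6 in HFD-fed f/f, and 23.7 and 29.3 in HFD-fed LKO. The diets were apart in each genotype, as they were in this direction for 26.3% of all genes in f/f and 28% in LKO. Its log2 fold change was 0.67 ± 0.08 (adjusted p = 0.00642), with 0.73 in LKO (adjusted p = 0.0261) and 0.60 in f/f (adjusted p = 0.0561).

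Sult1a1 rose from 154 to 211 FPKM on CD to 228 to 260 on HFD (0.45 ± 0.08, adjusted p = 0.0217). Sult1c2 rose from 1.02 to 2.03 FPKM to 2.16 to 3.73 (0.83 ± 0.18, adjusted p = 0.0334). Sult2a8 rose from 408 to 463 FPKM to 461 to 518 in FPKM as deposited, with a log2 fold change of 0.29 ± 0.05 (adjusted p = 0.0231) that did not pass without normalisation (0.18, adjusted p = 0.117). Sult5a1 fell from 10.6 to 15.7 FPKM to 5.24 to 7.39 (-0.80 ± 0.14, adjusted p = 0.0211). Sult1d1 had 0.37 ± 0.11 and did not pass (adjusted p = 0.0895).

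Sult1e1, the oestrogen sulfotransferase, was detected at a high level in 1 library. It had 41.7 FPKM in library 2 of CD-fed f/f and 0.0756 to 0.609 FPKM in the other 7, among them 0.256 FPKM in the other library of that group. The value was 68.4 times the next highest. Sult1e1 passed the filter through that library alone. Its fitted genotype difference on CD was -2.70 ± 1.39 with all libraries (adjusted p = 0.484), and no comparison called it. Without the high library it did not pass the filter, and with the high library as the only one of its group (the other left out) the fitted difference was -5.26 (adjusted p = 0.000516). Pools of 2 mice were sequenced, and which mouse carried the signal cannot be told apart.

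Within each genotype the diet calls were fewer, since each rested on 2 against 2 libraries. In f/f, 5 members passed, all of them lower on HFD (11.1% of members, against 0.705% of all genes), and 0 of 45 were higher (against 0.627%). At an unadjusted p under 0.05, 8 of 45 members were higher, against 1157 of all 11634 genes. The 5 that passed were Gstm3, Ugt2b1, Ugt1a9, Gstm6 and Ugt2b38, the last of which entered the test through CD libraries here and in LKO. In LKO, 10 members passed, 5 higher (11.1%, against 1.57%) and 5 lower (11.1%, against 1.44%). Gstm3, Gstp1, Ugt1a9, Ugt2b1 and Ugt2b38 were lower, and Sult1b1, Ugt3a1, Gstk1, Sult2a8 and Gstt1 were higher. The split in LKO depended on the scaling: 2 were higher and 7 lower without normalisation, and 2 higher and 5 lower with median centring. With 1 library left out in turn, the number of calls was 0 to 2 in f/f and 0 to 6 in LKO.

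Of the 19 calls averaged over genotypes, those of Gstm3, Ugt2b1, Ugt1a9, Sult1b1, Ugt2b38, Gstm6, Gstp1 and Gstk1 held with each library left out in turn. Some markers of other cell types were called by diet as well. Of 6 stellate markers, Dcn (0.78, adjusted p = 0.0283) and Reln (0.62, adjusted p = 0.0293) were higher on HFD, and Lrat, Des, Col1a1 and Pdgfrb were not called. Of 5 endothelial markers, Lyve1 was higher (0.76, adjusted p = 0.0213) and the others were not called. In the other marker lists the intestinal gene Fabp2 (0.83, adjusted p = 0.00605) and the adipocyte gene Fabp4 (0.37, adjusted p = 0.0332) were higher. The red cell gene Alas2 (-0.56, adjusted p = 0.00936) was lower. The hepatocyte gene Ttr was called higher after normalisation (0.39, adjusted p = 0.0261). Its deposited FPKM overlapped, with 3994.5 to 4540.8 on CD and 4034.2 to 4302.2 on HFD, and did not show a rise. The part of these markers in the results was not tested.

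By genotype, none of the members passed. This comparison asked how loss of RORα in hepatocytes altered the conjugating enzymes on each diet. On HFD, 0 of 45 members had an adjusted p under 0.05 in limma, where 5 genes of 11634 did (0.043%). At an unadjusted p under 0.05 there were 6 members, or 13.3%, against 9.58% of all genes. On CD, 0 of 45 members passed, where 2 genes did (0.0172%). At the unadjusted level there were 5 members, or 11.1%, against 12.3%. Averaged over diets, 0 of 45 passed (0.103% of all genes did) and 8 had an unadjusted p under 0.05 (17.8%, against 13.5%). In these counts the members lay near the share of all genes. Among the marker lists, Cela1 was called by genotype averaged over diets, with 4.62 to 6.18 FPKM in LKO and 9.85 to 14.0 in f/f (-0.995, adjusted p = 0.0241), while the 5 other pancreatic markers were listed at 0 throughout; its part in the genotype values was not tested. In the averaged comparison, 2 members had 4 LKO libraries apart from 4 f/f libraries (4.44%, against 4.84% of all genes).

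Gstm4, at the end of the mu cluster opposite to Gstm5, was the member with the smallest p in each of these 3 comparisons. It had 18.2 and 17.3 FPKM in CD-fed f/f and 28.4 and 24.9 in CD-fed libraries labelled KO. On HFD it had 15.5 and 14.7 FPKM in f/f and 25.3 and 21.3 in LKO. All 4 libraries labelled KO were above all 4 labelled WT. The log2 fold change was 0.58 ± 0.11 on CD (adjusted p = 0.195) and 0.61 ± 0.11 on HFD (adjusted p = 0.205). Averaged over diets it was 0.60 ± 0.08 (adjusted p = 0.0682). It passed when genes with an FPKM above 1 in all libraries were tested (adjusted p = 0.0361) and when genes listed at 0 in any library were left out (adjusted p = 0.0408). No 50-base window of Gstm4 is shared with another gene. By diet Gstm4 differed little, with -0.17 ± 0.08 (adjusted p = 0.223).

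The next members by p on HFD were Gstp1 (-0.75 ± 0.17, adjusted p = 0.260), Gstk1 (0.31 ± 0.08, adjusted p = 0.324), Ugt2a3 (-0.28 ± 0.08, adjusted p = 0.342) and Ugt1a9 (0.65 ± 0.22, adjusted p = 0.426). In each of these 4 genes the HFD libraries of the genotypes did not overlap. On HFD 18 of 45 members were apart, 28.9% higher and 11.1% lower in LKO, against 21.4% and 20.8% of all genes. The tilt was the reverse on CD, with 15.6% of members apart and higher in LKO and 31.1% lower, against 21% and 22.1%. On CD Gstp1 had 0.02 ± 0.17, since its CD-fed libraries of the genotypes overlapped. The other genes among the 5 largest log2 differences of members apart on HFD were Gstt2 (-0.38, adjusted p = 0.581) and Ugt1a7c (0.32, adjusted p = 0.806). Ugt1a7c was narrowly apart, with 2.42 and 2.76 FPKM in f/f and 2.97 and 4.05 in LKO. Of its windows, 53.7% occur in other genes.

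On CD, Sult1d1 had 81.1 and 89.3 FPKM in f/f and 65.3 and 49.9 in LKO (-0.57 ± 0.16, adjusted p = 0.262). Gsta1, a low-level gene with 0.467 and 1.49 FPKM in f/f and 2.86 and 1.75 in LKO, had 0.76 ± 0.27 (adjusted p = 0.336), and 90.5% of its windows occur in other genes. Ugt1a10, at most 1.01 FPKM in any library, had 0.43 (adjusted p = 0.52). Ugt1a6a, which acts on planar phenols, was the other member besides Gstm4 with all LKO libraries above all f/f libraries after normalisation. Its difference was 0.13 ± 0.05 averaged over diets (adjusted p = 0.317). The deposited FPKM of Ugt1a6a overlapped, with 52.4 and 53.6 in HFD-fed LKO and 53.9 and 54.3 in CD-fed f/f. Of its windows, 52.1% occur in other genes. Most SULTs lay below 0 on CD, 7 of 8, with a median of -0.21 beside -0.00 over all genes, and 0 of 8 passed. Among the 7, the value of Sult1e1 rests mostly on the f/f library with 41.7 FPKM. That of Sult2a7 was -0.005 and turned to 0.02 without normalisation.

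**Figure D3:**
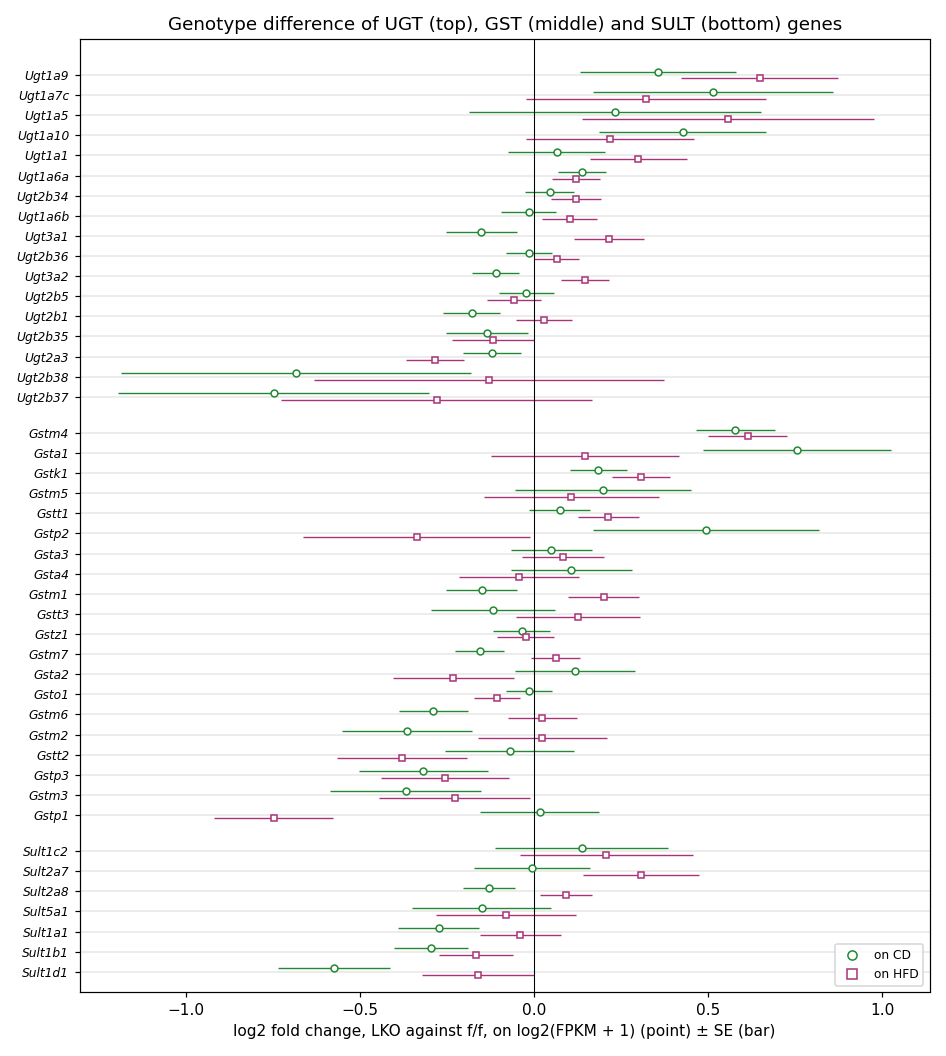
Log2 fold change of RORα LKO against RORα f/f (points) ± SE (bars) on CD (circles) and HFD (squares) for 44 of the 45 tested members, without Sult1e1. No symbol passed an adjusted p of 0.05; Gstm4 lies near 0.60 on both diets and Gstp1 at -0.75 on HFD and 0.02 on CD.

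The design also allowed the genotype differences of the diets to be compared with each other. In this interaction 0 of 45 members passed (0.0344% of all genes did) and 4 had an unadjusted p under 0.05 (8.89%, against 8.35%). These were Gstp1 (-0.76 ± 0.24, adjusted p = 0.558), Ugt3a2 (0.26 ± 0.10, adjusted p = 0.576), Ugt3a1 (0.37 ± 0.14, adjusted p = 0.576) and Gstm1 (0.35 ± 0.14, adjusted p = 0.594). A larger drop of Gstp1 on HFD in LKO than in f/f was thus not established by the test of the difference.

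**Figure D4:**
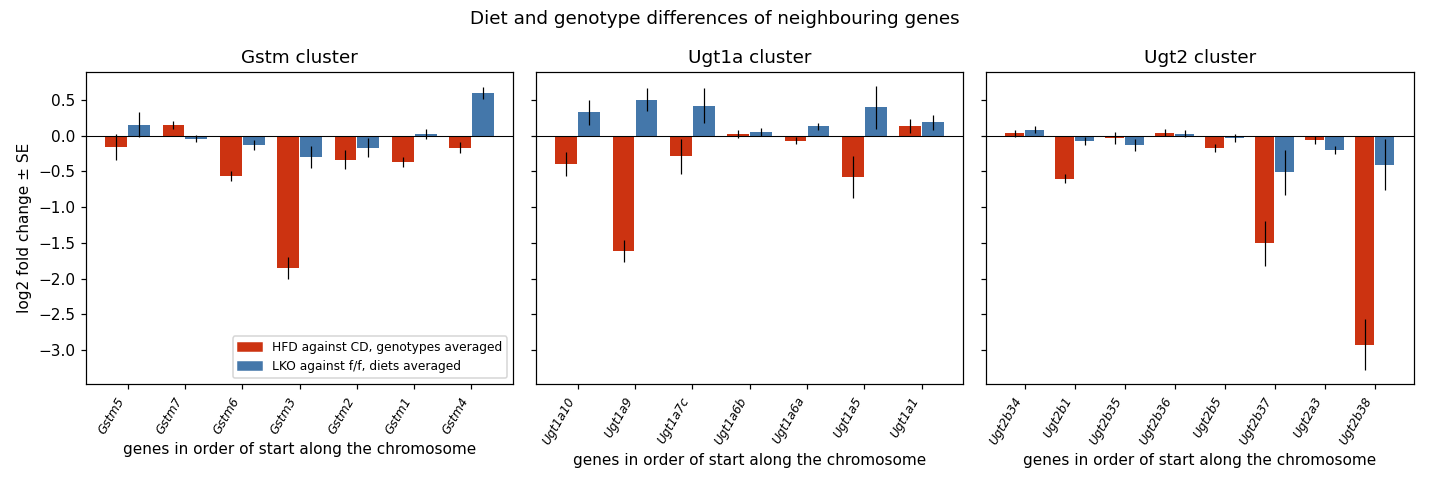
Log2 fold change ± SE (bars) of HFD against CD averaged over genotypes (red) and of LKO against f/f averaged over diets (blue) for the tested genes of 3 clusters, in order along the chromosome. Diet bars are of unequal length within a cluster: Gstm3 at -1.85 stands between Gstm6 at -0.57 and Gstm2 at -0.34, Ugt1a9 at -1.62 between Ugt1a10 at -0.40 and Ugt1a7c at -0.29, and Ugt2b38 at -2.92 beside Ugt2a3 at -0.06.

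Genes that serve the conjugation reactions were examined as lists of non-members. Of all genes tested, 5.04% were called higher on HFD averaged over genotypes and 4.86% lower, the shares to set beside each list count below. Of 19 tested genes for cofactor supply (UDP-glucuronic acid, glutathione and the sulfate donor PAPS) and membrane-bound GSTs, 1 passed by diet averaged over genotypes, with a list median of 0.06 beside 0.01 for all genes. This was Mgst1, a microsomal GST, at 0.33 (adjusted p = 0.0254), whose sign turned to -0.20 without normalisation (adjusted p = 0.151) and to -0.17 with median centring. Of 8 transporters of conjugates and bile acids, 2 rose and 0 fell. Slc10a1, the bile acid uptake carrier NTCP, went from 435 to 504 FPKM on CD to 639 to 820 on HFD (0.82 ± 0.08, adjusted p = 0.00433). Slco1b2, the uptake carrier for bilirubin conjugates and drugs, went from 385 to 423 FPKM to 574 to 636 (0.73 ± 0.06, adjusted p = 0.0036). Both also passed within each genotype.

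Of 4 deconjugating enzymes or their activators, Arsa (0.44, adjusted p = 0.0171) and Sumf1 (0.27, adjusted p = 0.0184) rose on HFD and Gusb, the β-glucuronidase, fell (-0.37, adjusted p = 0.0366). Of 16 tested regulators of drug metabolism, 4 passed (against 5.04% higher and 4.86% lower of all genes), and the 3 reported here rose. Nr1i3, which encodes the nuclear receptor CAR, had 121 to 210 FPKM on CD and 190 to 246 on HFD (0.58 ± 0.12, adjusted p = 0.0302). Rxra, its partner receptor, had 0.27 (adjusted p = 0.0152) and Hnf4a 0.28 (adjusted p = 0.0475). Of 8 tested NRF2 targets outside the set, 0 rose and 1 fell, namely the microsomal epoxide hydrolase Ephx1, from 175 to 211 FPKM on CD to 111 to 158 on HFD (-0.43 ± 0.07, adjusted p = 0.0141).

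Lists of genes with sex-dependent liver expression were included because several Gstp, Gstm, Ugt2b and Sult genes belong to that class in mice. Of 11 tested male-predominant genes, 0 rose and 5 fell on HFD (against 4.86% of all genes lower), with a list median of -0.40. These were Cyp4a12a (-1.49 ± 0.17, adjusted p = 0.00686), Cyp4a12b (-1.59, adjusted p = 0.0119), Cyp7b1 (-1.37, adjusted p = 0.0199), C6 (-0.85, adjusted p = 0.0106) and Egfr (-1.08, adjusted p = 0.000738). Of 5 tested female-predominant genes, 2 rose (against 5.04% of all genes higher) and 0 fell, with a list median of 1.20. Cyp2b9 went from 2.75 to 6.74 FPKM on CD to 28.6 to 69.9 on HFD (3.07 ± 0.33, adjusted p = 0.00586), and Cyp2b13 from at most 0.283 FPKM to 1.07 to 3.81 (1.55, adjusted p = 0.035), a gene that passed the filter through HFD libraries alone. By genotype averaged over diets, 0 genes of these 7 lists passed, where 0.103% of all genes did.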

How the data were processed

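Liver RNA of the 8 pooled libraries had been sequenced by the authors. Per the labels, the submitters' processing notes name cutadapt 1.0, TopHat2 2.0.7, Cufflinks and the GRCm38 build, and the authors deposited FPKM per Ensembl gene from Cufflinks, which divides fragments shared by close copies. Read counts were not used here, so the depth of each library is unknown and no counting interval is given. Symbols, gene types and positions were taken from GENCODE M21, which matched 36425 of the 38283 rows; 4 pseudogene rows with Sult2a symbols were left out.

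FPKM were transformed to log2(FPKM + 1), quantile-normalised and tested with limma 3.58.1 in R 4.3.3, in a model with 1 mean for each of the 4 groups and a trended variance, over the 11634 genes that exceeded an FPKM of 1 somewhere among the 8 libraries. P-values were adjusted over these genes by the Benjamini-Hochberg method and called at an adjusted p of 0.05. The fit had 4 residual degrees of freedom, 6.80 after moderation. A fold change on this scale understates that of low genes. Libraries are pools of separate mice, so each error measures the spread between pools. Libraries were called apart from normalised values. The script was tested on simulated data. Python 3.11.15 and matplotlib 3.10.9 were used for tables and plots.

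The members and the lists were chosen with earlier results of these data known. Members were named if they were among the 5 highest of a family, among the 5 largest differences of a comparison with groups apart, called in any comparison, or among the 2 nearest to the filter on either side; genes of the 7 other lists if called, except that a result of the regulator list is not reported here. The genes whose promoters are printed were chosen after their values were seen. Alternatives were other scalings, pseudocounts and filters, a replicate block, no variance trend, the libraries of a comparison alone, close copies summed, and each library left out. Whether replicate numbers pair the libraries was checked by the correlation of same-numbered deviations, which was -0.00 to 0.15 and under 0.1 in 4 of 6 pairs of groups; the numbers were not taken as pairs.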

Additional observations from a re-analysis of the deposited data

Results flagged for a closer look

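In 3 members the libraries of the genotypes were apart after normalisation in opposite directions on the 2 diets. The genotype difference on HFD minus that on CD, on the log2 scale, was 0.35 for Gstm1, 0.37 for Ugt3a1 and 0.26 for Ugt3a2. Each was lower in LKO than in f/f on CD and higher on HFD. Of all genes tested, 21% were apart and higher in LKO on CD and 22.1% lower, and 21.4% and 20.8% on HFD. How many were apart in opposite directions was not counted over all genes, so the 3 members are a description. For Gstm1 the separation on HFD depended on the scaling, since the deposited FPKM overlapped (507 and 599 in f/f, 584 and 586 in LKO) and the HFD difference was 0.20 with and 0.09 without normalisation. The test of the difference gave an adjusted p in limma of 0.594, 0.576 and 0.576. Groups of 2 libraries were too small for a check of single outlying libraries.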

How the results depend on the processing

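The members called by genotype (0 on each diet and averaged) and by the interaction (0) stayed at 0 in every setting that kept all libraries, except for 1 call averaged over diets (Gstm4) with FPKM above 1 in all libraries and 1 (Gstm4) with genes listed at 0 left out. With a library left out they were 0 to 1 on CD, averaged over diets and in the interaction, each time Sult1e1 without the low CD-fed f/f library, and 0 on HFD. By diet averaged over genotypes, the 19 calls were 13 to 19 in the settings that kept all libraries, and 9 to 15 with a library left out. The 9 were reached without LKO replicate 2 on CD, f/f replicate 2 on CD, or either LKO replicate on HFD. Of all genes, 3.38% to 13.25% were called in the settings that kept all libraries, and 3.23% to 7.05% with a library left out. In f/f the 5 calls became 1 without a filter, 1 with the libraries of the comparison alone, 2 without the variance trend, and 0 to 2 with a library left out. In LKO the 10 calls became 1 without a filter, 0 with the libraries of the comparison alone, 5 without the trend, and 0 to 6 with a library left out. Fewer libraries leave fewer residual degrees of freedom, and without a filter 20816 genes were tested; the cause was otherwise not tested. An arm left with 1 library was assumed to vary like the others. With the replicate number as a block, there were 17 calls by diet averaged over genotypes, 1 in f/f, 8 in LKO and 0 by genotype or interaction; the numbers mark different mice and share only a number. Summing all Ugt1a genes turned the diet difference in LKO from the -1.47 of Ugt1a9 to 0.0783. Summing Ugt2b35 to Ugt2b38 turned it from the -2.65 of Ugt2b38 to 0.0123. In these sums the other genes hold most of the FPKM. The Ugt2b sum leaves out Ugt2b5, the gene that shares the most windows with Ugt2b38, so it cannot show how shared reads were divided. Quantile normalisation shifted the diet difference of the most abundant genes upward, by 0.22 for Gsta3 (0.16 against -0.07 without normalisation). Small rises of abundant members therefore depend on the scaling. With genes listed at 0 in any library left out, albumin among them, 19 members were called by diet averaged over genotypes. Of the main calls, 19 were kept in that setting.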
